A study of Bos taurus with 22 samples.

Results

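Sodium, chloride and bicarbonate transporters of the jejunal mucosa were described by 8 genes, chosen by name from a count table of 27570 genes. All 8 were present, each under 1 Ensembl identifier. They were read as 3 apical genes of absorption (SLC9A3, SLC26A3 and SLC26A6), 4 genes tied to secretion or bicarbonate supply (CFTR, CLCA4, SLC12A2 and SLC4A4) and 1 gene of the sodium pump (ATP1B1). RNA sequencing was available for 22 Holstein steers that were 10 to 12 months of age, 1 mucosal scraping each. All of them received raw corn starch in the abomasum (3.94 g per kg of body weight per d) for 7 d. Control steers (n = 5) received abomasal water and vehicle, a solution of bovine serum albumin (BSA). GLP-2 steers (n = 5) received water and subcutaneous glucagon-like peptide 2 at 100 µg per kg of body weight per d. Casein steers (n = 6) received sodium caseinate at 1.30 g per kg of body weight per d with vehicle, and casein + GLP-2 steers (n = 6) received both. A further GLP-2 steer of the study was not analysed here. The comparisons asked whether GLP-2 or casein changed transporter mRNA, so that the 11 steers given GLP-2 were set against the 11 given BSA, and the 12 given casein against the 10 given water.

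Enterocytes of the villus take up sodium and chloride together, by a sodium-hydrogen exchanger and chloride-bicarbonate exchangers that work side by side in the brush border. Cells of the crypt load chloride through a basolateral cotransporter and release it to the lumen through CFTR, while basolateral sodium-bicarbonate cotransport supplies bicarbonate for secretion. The sodium pump of the basolateral membrane maintains the sodium gradient on which both directions of transport depend.

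In the coordinates of the deposited tables (ARS-UCD1.2), SLC9A3 (ENSBTAG00000004629), the sodium-hydrogen exchanger of the brush border, lies at chr20:71607452-71645487 on the plus strand. SLC26A3 (ENSBTAG00000015547, chr4:48780316-48813887, minus strand) and SLC26A6 (ENSBTAG00000038381, chr22:51249161-51259943, plus strand) encode chloride-bicarbonate exchangers and carry the same family annotation, Sulfate_transp. CFTR (ENSBTAG00000006589, chr4:50743789-50957593, minus strand), the cyclic AMP-regulated chloride and bicarbonate channel, lies 1.93 Mb from SLC26A3 on the same strand. SLC12A2 (ENSBTAG00000009637, chr7:25761272-25853058, minus strand) encodes the basolateral sodium-potassium-chloride cotransporter. SLC4A4 (ENSBTAG00000002348, chr6:86381836-86809131, plus strand) encodes the electrogenic sodium-bicarbonate cotransporter and was the longest of the 8 genes, with 427 kb. CLCA4 (ENSBTAG00000017357, chr3:57499492-57530509, minus strand) belongs to a family of proteins that regulate calcium-activated chloride conductance and are not channels themselves. ATP1B1 (ENSBTAG00000002688, chr16:36759212-36784818, plus strand) encodes a beta subunit of the sodium pump. The span of ATP1B1 overlaps NME7 on the opposite strand and 1 small RNA gene, and the other 7 genes overlap no gene of the table. Libraries were strand-specific, but whether counting used the strand is not given in the sources used here.

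Libraries held 8809666 to 28447810 counts (median 12028560.5), and precision differed by gene. CLCA4 had 226 to 88574 counts per steer, SLC9A3 983 to 30501 and ATP1B1 1049 to 11192, whereas SLC26A3 had at least 10 counts in 7 of 22 steers and 0 counts in 3. Markers of the villus enterocyte were all detected (18 of 18), and their summed level differed between steers from 4101 to 132545 CPM (counts scaled to library size with TMM factors). Markers of the B cell follicle stood apart in 4 BSA steers, control replicates 1, 3 and 5 and casein replicate 3, with mean log2 CPM of 5.96 to 6.92 against 0.37 to 3.71 in the other 18. In such bulk samples, fewer cells of a type and less RNA per cell cannot be told apart.

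Levels of different genes were compared per length, as the deposited FPKM (fragments per kilobase of gene length, scaled to library size). CLCA4 had the highest median over the 22 steers, 243 FPKM (range 5.25 to 1925), followed by ATP1B1 with 226 FPKM (58.2 to 549) and SLC9A3 with 92.8 FPKM (14.03 to 407). CLCA4 exceeded ATP1B1 in 13 of 22 steers, so that these neighbours were not separated by their spread, while ATP1B1 exceeded SLC9A3 in 22 of 22. The remaining 5 genes had medians below 10 FPKM. SLC4A4 had a median of 9.81 FPKM, CFTR 5.18 FPKM and SLC12A2 4.02 FPKM, and CFTR exceeded SLC12A2 in 13 of 22 steers. SLC26A6 had a median of 2.34 FPKM and SLC26A3 of 0.165 FPKM, with SLC26A6 higher in 22 of 22. Thus the sodium-hydrogen exchanger SLC9A3 was measured at a median of 18.4 times the FPKM of CFTR within a steer (range 5.47 to 66.9), and in none of the 22 steers was CFTR the higher of the pair.

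**Figure D1:**
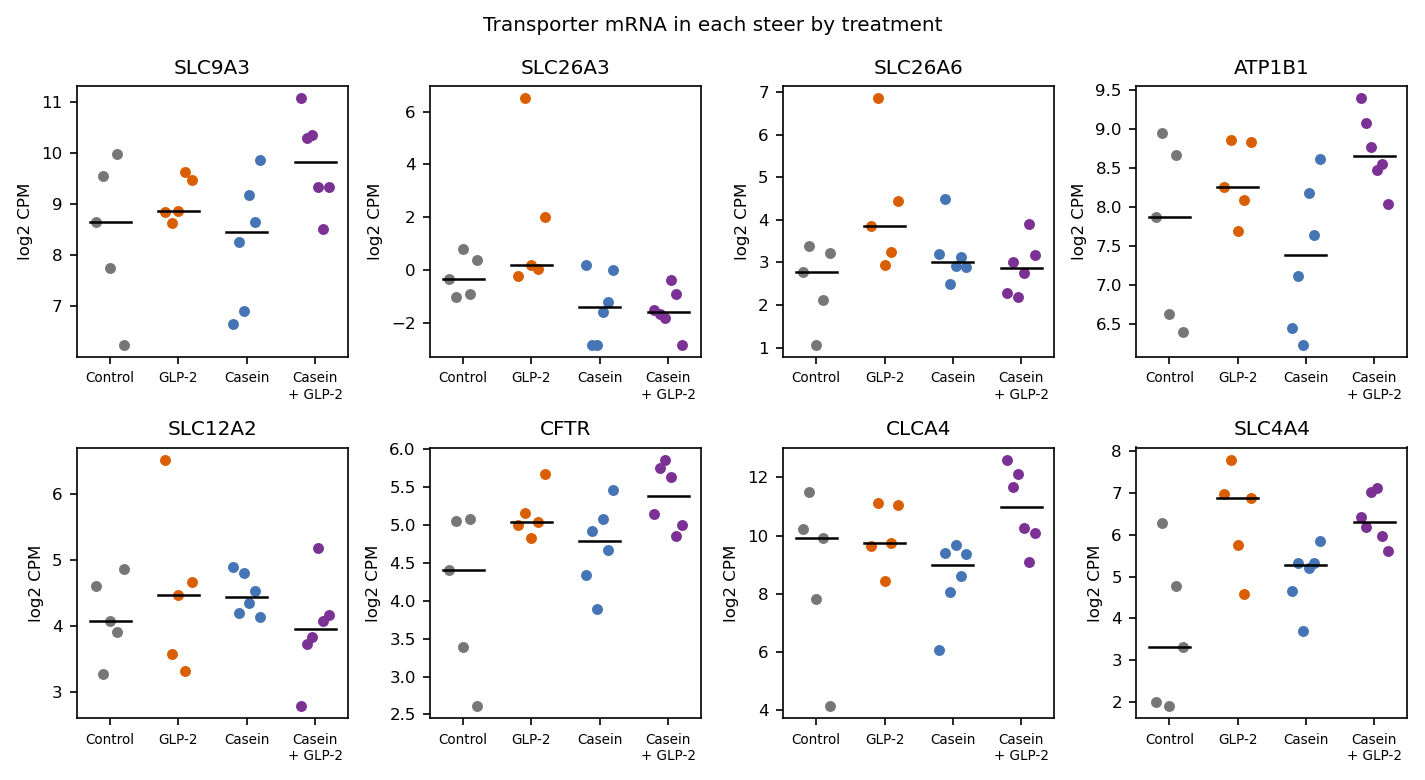
Level of each transporter gene in every steer, as log2 CPM (prior count 2, vertical axis, scaled per gene) by treatment, with a point per steer and a line at the treatment median. SLC4A4 lies highest in steers given GLP-2, and SLC26A3 and SLC26A6 each have 1 GLP-2 steer far above the rest.

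SLC4A4, which supplies bicarbonate across the basolateral membrane, had higher mRNA expression in steers given exogenous GLP-2 than in steers given BSA. It was the 1 gene called by edgeR among the 7 transporter genes that passed the filter on low counts, whereas DESeq2 called CFTR and ATP1B1 as well. A further 5 genes had log2 fold changes above 0 with an unadjusted p of at most 0.05, and 4 of these met the study's definition of a tendency (adjusted p above 0.05 and up to 0.10). SLC12A2 was the exception, with steers of both groups intermingled. Over all 13928 genes tested, the quasi-likelihood F test of edgeR (p-values adjusted by Benjamini-Hochberg) called 13.5% in either direction and 5.13% as higher with GLP-2. A count of 1 of 7 is too small to be set apart from that background. With the threshold moved to an adjusted p of 0.10, 5 of 7 transporter genes were higher against 11.9% of all genes, and with an unadjusted p of 0.05 these were 6 of 7 against 16.5%. The median log2 fold change was 0.93 over the 7 genes and 0.01 over all genes tested. Over the 18 villus enterocyte markers it was 0.93 as well. The 7 genes were chosen with earlier results of these data known, and SLC9A3, CFTR, CLCA4 and ATP1B1 varied together within treatments. These shares are therefore a description and not a test of the genes as a set.

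SLC4A4 was measured at 3.86, 77.9, 3.61, 27.2 and 9.77 CPM in control replicates 1 to 5, and at 126, 222, 53.5, 24.0 and 118 CPM in GLP-2 replicates 1, 3, 4, 5 and 6. With casein it ranged from 12.9 to 57.2 CPM (median 38.5), and with casein + GLP-2 from 48.5 to 138 CPM (median 79.1). Control replicate 2 was the only BSA steer above 60 CPM, GLP-2 replicate 5 was the lowest of the GLP-2 steers, and the groups overlapped. Of the 11 steers given GLP-2, 6 exceeded the highest BSA steer and 10 exceeded the BSA median. Steers given BSA averaged 30.4 ± 23.2 CPM (SD, n = 11) and steers given GLP-2 averaged 98.1 ± 55.7 CPM (SD, n = 11). The log2 fold change was 1.71 (SE 0.44, 95% interval 0.79 to 2.63; edgeR adjusted p = 0.0239), a 3.28-fold difference. With the replicate block it was 1.85 (edgeR adjusted p = 0.0484), and without GLP-2 replicate 3, the highest steer, 1.49 (edgeR adjusted p = 0.0460).

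The call for SLC4A4 did not hold in fits that took follicle or epithelial markers into account. The B cell follicle score was 1.24 ± 0.57 (mean log2 CPM, SD, n = 11) with GLP-2 and 3.76 ± 2.27 with BSA. Of its 10 tested markers, 0 were higher with GLP-2 and edgeR called 9 as lower, beside 1166 of all 13928 genes. Without the 4 follicle-rich BSA steers, a choice made after seeing the data, the log2 fold change of SLC4A4 was 1.18 (SE 0.35, unadjusted p = 0.00337, edgeR adjusted p = 0.320), and 0 of 14285 genes were called, with 1927 at an unadjusted p of at most 0.05. With the follicle score as a covariate it was 0.71 (edgeR adjusted p = 0.999), and with a score of general epithelial markers it was 1.18 (edgeR adjusted p = 0.358). In both of these fits edgeR called 0 genes in all, and no DESeq2 fit with these covariates was run. The follicle covariate brought the log2 fold changes of the other genes to 0.06 for CFTR, 0.08 for SLC9A3 and 0.16 for ATP1B1. FABP6, a bile acid carrier of the ileum, was also lower with GLP-2 (log2 fold change -4.43, SE 0.93; edgeR adjusted p = 0.0189), and the summed CPM of FABP6 and SLC10A2 ran from 0.422 to 222 in BSA steers and from 0.281 to 9.93 in GLP-2 steers. What follicle or ileal RNA contributed to the transporter values was not tested.

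CFTR, the channel through which secreted chloride leaves the cell, was measured at 24.8 ± 11.5 CPM (SD, n = 11) with BSA and at 39.7 ± 11.04 CPM with GLP-2. The lowest, median and highest steers had 5.97, 25.2 and 44.0 CPM with BSA and 28.4, 35.1 and 58.0 CPM with GLP-2. All 11 GLP-2 steers exceeded the BSA median, and 6 BSA steers lay below the lowest GLP-2 steer. GLP-2 tended to increase CFTR (log2 fold change 0.69, SE 0.25; edgeR adjusted p = 0.0613). CLCA4, with log2 fold change 1.53 (SE 0.61; edgeR adjusted p = 0.0851), had 742 ± 802 CPM with BSA and 2101 ± 1850 CPM with GLP-2. It was the most variable of the well-counted genes, from 17.5 CPM in control replicate 5 to 6223 CPM in casein + GLP-2 replicate 1. Leaving out 1 steer gave log2 fold changes from 1.18 without casein + GLP-2 replicate 1 to 2.02 without control replicate 2 (edgeR adjusted p = 0.0197), and CLCA4 was called in 1 of these 22 fits. That fit, without control replicate 2, called 3516 genes in all.

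SLC12A2, which loads chloride at the base of the secretory cell, had a log2 fold change of 0.18 with GLP-2 (SE 0.33, 95% interval -0.51 to 0.86; edgeR adjusted p = 0.723). The control steers had 24.3, 9.53, 16.6, 14.9 and 29.0 CPM. The GLP-2 steers had 91.9, 11.8, 22.02, 9.80 and 25.3 CPM in replicates 1, 3, 4, 5 and 6. GLP-2 replicate 1 was 2.53 times the next highest of all 22 steers, casein + GLP-2 replicate 4, and without it the log2 fold change was -0.30 (edgeR adjusted p = 0.381). Median CPM was 20.1 in BSA steers and 16.7 in GLP-2 steers, while the means were 21.0 and 24.1, so that means and medians differed in direction.

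Among the apical genes of absorption, SLC9A3 was measured at 445 ± 333 CPM (SD, n = 11) with BSA and at 833 ± 537 CPM with GLP-2. The lowest, median and highest steers had 76.3, 402 and 1009 CPM with BSA and 366, 644 and 2143 CPM with GLP-2. SLC9A3 was not called between GLP-2 and BSA (log2 fold change 0.93, SE 0.42, 95% interval 0.06 to 1.80; edgeR unadjusted p = 0.0380, adjusted p = 0.123). DESeq2 gave it an adjusted p of 0.0717, within the range of a tendency, and 5 BSA steers lay below the lowest GLP-2 steer. The paper, which had a further GLP-2 steer, counts SLC9A3 and CLCA4 among the differentially expressed genes of its own data. For CLCA4, DESeq2 gave an adjusted p of 0.0554 here. For SLC9A3, the highest 3 steers were casein + GLP-2 replicates 1, 2 and 3, with 2143, 1256 and 1296 CPM.

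SLC26A6 and SLC26A3 were set apart by 1 animal. SLC26A6 had 6.71, 10.2, 1.96, 4.22 and 9.15 CPM in the control steers, 14.2, 115, 7.56, 9.32 and 21.7 CPM in the GLP-2 steers, 5.44 to 22.3 CPM with casein and 4.40 to 14.9 CPM with casein + GLP-2. GLP-2 replicate 3 held 52.4% of all SLC26A6 counts (2784 of 5311). The log2 fold change with GLP-2 was 1.27 in edgeR (SE 0.52; edgeR adjusted p = 0.0909) and 0.22 in DESeq2 (DESeq2 adjusted p = 0.618). Without that steer it was 0.25 in edgeR (edgeR adjusted p = 0.630). With the replicate block it was 0.85 (edgeR adjusted p = 0.282), so that 4 of the 7 transporter genes rather than 5 passed 0.10 after adjustment in that fit. SLC26A3 was below 4 CPM in 21 steers, whereas GLP-2 replicate 3 had 90.7 CPM and 91.6% of all counts (2190 of 2390). The gene did not pass the filter in the comparison of GLP-2 with BSA. The same steer was highest for SLC4A4 but not for SLC9A3, CFTR, CLCA4, SLC12A2 or ATP1B1. SLC26A3 was 1 of 4 genes, among 15086 tested, in which GLP-2 replicate 3 exceeded every other steer by at least 8-fold, and in the other 21 steers 0 to 3 genes did so.

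ATP1B1, the beta subunit of the pump, had 228 ± 150 CPM (SD, n = 11) with BSA and 396 ± 137 CPM with GLP-2. The lowest, median and highest steers had 75.2, 200 and 496 CPM with BSA and 206, 375 and 674 CPM with GLP-2. All 11 GLP-2 steers exceeded the BSA median, and 6 BSA steers lay below the lowest GLP-2 steer. GLP-2 tended to increase ATP1B1 (log2 fold change 0.81, SE 0.32; edgeR adjusted p = 0.0814). Tested by DESeq2 instead, the genes called were SLC4A4 (adjusted p = 0.00242), CFTR (adjusted p = 0.0368) and ATP1B1 (adjusted p = 0.0444), 3 of 7 against 9.15% of all genes called as higher, and limma on log2(FPKM + 1) also called SLC4A4, CFTR and ATP1B1. With the replicate block, edgeR called 2.52% of all genes as higher with GLP-2 (351 of 13928) and 1 of the 7, SLC4A4.

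**Figure D2:**
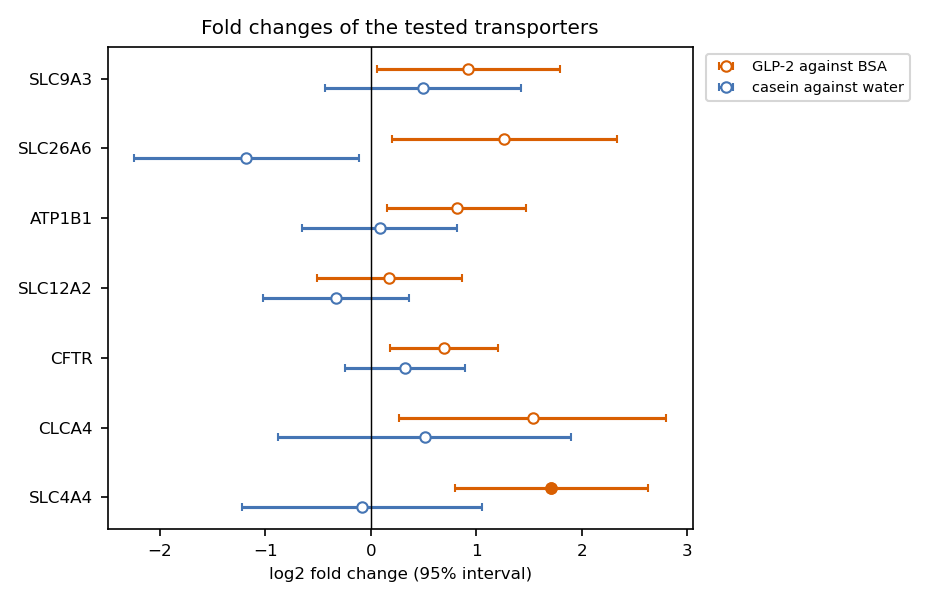
Log2 fold changes (horizontal axis) of the 7 tested transporter genes with their 95% intervals, for GLP-2 against BSA (11 and 11 steers) and casein against water (12 and 10 steers). Filled points passed an adjusted p of 0.05 in edgeR. SLC4A4 with GLP-2 is the filled point, and the intervals for casein, apart from that of SLC26A6, include 0.

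Between postruminal casein infusion and water, edgeR and DESeq2 each called 0 of the 7 tested transporter genes. Of 14096 genes, edgeR called 0% between casein and water (0 genes, with 474 at an unadjusted p of at most 0.05, and 5 by DESeq2). Log2 fold changes were 0.49 (SE 0.45) for SLC9A3, 0.33 (SE 0.28) for CFTR, 0.51 (SE 0.67) for CLCA4, -0.33 (SE 0.33) for SLC12A2, -0.09 (SE 0.55) for SLC4A4 and 0.08 (SE 0.35) for ATP1B1. The intervals were wide, and that of SLC4A4 ran from -1.22 to 1.05. SLC26A6 was lower with casein at an unadjusted p of 0.0311 (log2 fold change -1.18, SE 0.51; edgeR adjusted p = 0.994), as were 1.84% of all genes at that threshold. Without GLP-2 replicate 3, a steer given water, this value was -0.08 (edgeR adjusted p = 0.980). SLC26A3, too low to be tested here, had 0 to 12 counts in the 12 casein steers and 4 to 2190 counts in the 10 water steers. Of the casein steers, 8 had fewer CPM of SLC26A3 than the lowest water steer, at counts where 1 read carries weight.

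In the model of the 4 treatments (15086 genes, all 8 transporter genes tested), edgeR called 0% of genes, 0 in number, in each pairwise contrast and in the interaction. Unadjusted p-values of at most 0.05 numbered 2103 for GLP-2 against control, 3637 for casein + GLP-2 against casein, 854 for casein against control, 398 for casein + GLP-2 against GLP-2 and 645 for the interaction. DESeq2 called 285, 856, 10, 5 and 2 genes in the same order. GLP-2 against control was the contrast within water. There, 4 transporter genes passed the unadjusted threshold of 0.05, all higher, against 5.59% of all genes, and DESeq2 called SLC26A6 and SLC4A4. They were SLC26A3 (log2 fold change 4.56, SE 1.23), SLC26A6 (2.38, SE 0.65), SLC4A4 (2.15, SE 0.68) and CFTR (0.78, SE 0.37), with edgeR adjusted p from 0.170 to 0.349. SLC26A3 was at 0.98 (edgeR adjusted p = 0.748) and SLC26A6 at 1.013 (edgeR adjusted p = 0.486) without GLP-2 replicate 3, whereas SLC4A4 was at 1.69 (edgeR adjusted p = 0.444). Without control replicate 2, SLC4A4 was 3.27 and the 1 transporter gene called (edgeR adjusted p = 0.0302), in a fit that called 429 genes in all.

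Casein + GLP-2 against casein was the contrast within casein. Here too, 4 transporter genes passed the unadjusted threshold, all higher, against 9.88% of all genes, and DESeq2 called CLCA4. CLCA4 had the largest value, 2.54 (SE 0.82; edgeR adjusted p = 0.122), with 67.5 to 824 CPM in the casein steers and 543 to 6223 CPM in the casein + GLP-2 steers, 5 of 6 of which exceeded every casein steer. SLC9A3 had 1.38 (SE 0.56), SLC4A4 1.34 (SE 0.61) and ATP1B1 1.16 (SE 0.43), with edgeR adjusted p from 0.141 to 0.188. For SLC4A4, 5 of 6 casein + GLP-2 steers exceeded every casein steer as well. SLC9A3 and CLCA4 had a log2 fold change of 0.20 and 0.27 in the contrast within water. The difference between both contrasts, the casein × GLP-2 interaction, was not called for either gene (SLC9A3 1.18, SE 0.82; CLCA4 2.27, SE 1.16; edgeR adjusted p = 0.996 for both).

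Negative interaction terms at an unadjusted p of at most 0.05 were seen for SLC26A3 (-5.08, SE 1.69) and SLC26A6 (-2.72, SE 0.85), beside 2.59% of all genes, with edgeR adjusted p = 0.996. Between casein + GLP-2 and GLP-2, the same pair was lower at the unadjusted threshold (1.79% of all genes), with -6.18 (SE 1.26; edgeR adjusted p = 0.431) for SLC26A3 and -2.09 (SE 0.60; edgeR adjusted p = 0.995) for SLC26A6. SLC26A3 had 0 to 0.620 CPM (0 to 7 counts) in the 6 casein + GLP-2 steers and 0.718 to 90.7 CPM (9 to 2190 counts) in the 5 GLP-2 steers. In this contrast 0% of genes were called. How many other genes had groups apart was not counted, and at such low counts a single read carries weight. Without GLP-2 replicate 3 the values were -2.60 for SLC26A3 and -0.73 for SLC26A6 (edgeR adjusted p = 0.966 for both), and the interaction terms were -1.48 for SLC26A3 and -1.31 for SLC26A6. Casein against control, which shares its control steers with the GLP-2 contrast, gave 0 transporter genes at an unadjusted p of at most 0.05. Its log2 fold changes ran from -1.14 for CLCA4 to 0.63 for SLC26A6.

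Within treatments, the transporter genes followed the cell type markers of the scraping in opposite ways. Each gene's log2 CPM was set against 9 marker scores and against the other genes over 22 steers with the treatment means removed, 100 relations in all, with p-values from 2-sided permutation within treatments (100000 resamples) adjusted over the 100. ATP1B1 followed the villus enterocyte score most closely (Pearson r = 0.95, adjusted p = 0.000333; Spearman rho = 0.94, adjusted p = 0.000333). CLCA4 (r = 0.88, rho = 0.83), SLC9A3 (r = 0.86, rho = 0.80), CFTR (r = 0.84, rho = 0.83) and SLC4A4 (r = 0.66, rho = 0.71) were also positive, with permutation adjusted p of at most 0.0233. Without the 2 steers farthest from the median score, r was 0.93 for ATP1B1, 0.81 for CLCA4 and SLC9A3, 0.74 for CFTR and 0.64 for SLC4A4. SLC26A6 (r = 0.23, permutation adjusted p = 0.485) and SLC26A3 (r = 0.12, permutation adjusted p = 0.700) did not pass for this score.

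SLC12A2 was the gene with the opposite pattern. It was higher where the score of crypt and proliferation markers was high (r = 0.79, rho = 0.84, permutation adjusted p = 0.000333 for both; r = 0.75 without the 2 farthest steers) and was lower where villus markers were high (r = -0.49, permutation adjusted p = 0.0198; rho = -0.61, adjusted p = 0.0162; r = -0.38 without the 2 farthest steers). ATP1B1 (r = -0.76, rho = -0.76), SLC9A3 (r = -0.68, rho = -0.75), CLCA4 (r = -0.63, rho = -0.66) and CFTR (r = -0.61, rho = -0.62) were negative against the crypt score, with permutation adjusted p of at most 0.0229. Without the 2 farthest steers these r were -0.72, -0.76, -0.53 and -0.57. CFTR thus moved with the villus genes in these scrapings. Blocks held 3 or 4 steers, too few for values within a block. Without the 4 follicle-rich steers (n = 18), r with the villus score was 0.92 for ATP1B1, 0.86 for CLCA4, 0.71 for SLC9A3, 0.62 for CFTR, 0.56 for SLC4A4 and -0.40 for SLC12A2, and SLC12A2 with the crypt score had r = 0.82, whereas CFTR with the crypt score had r = -0.38.

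Marker scores of other cells moved with the transporter genes too. Negative relations with the B cell follicle score passed for SLC4A4 (r = -0.78, rho = -0.74), ATP1B1 (r = -0.78, rho = -0.78), CFTR (r = -0.75, rho = -0.81) and SLC9A3 (r = -0.69, rho = -0.76), with permutation adjusted p of at most 0.0179, and SLC12A2 was positive (r = 0.38, rho = 0.56, permutation adjusted p = 0.0238). Because 4 steers lie apart on this score, r was also taken over the other 18, where it was -0.55 for SLC4A4, -0.59 for ATP1B1, -0.56 for CFTR, -0.54 for SLC9A3 and 0.34 for SLC12A2. Without the 2 farthest steers it was -0.69, -0.74, -0.71, -0.70 and 0.31. Plasma cell and smooth muscle scores gave negative relations for 5 and 4 of the 8 genes, and the plasma cell score gave a positive relation for 1. General epithelial and T cell scores gave positive ones for 4 and 1, and goblet cell and BEST4 enterocyte scores gave 0 of 8 each. The villus score itself was 10.5 ± 0.58 (mean log2 CPM, SD, n = 11) with GLP-2 and 9.20 ± 1.25 with BSA, and all 18 villus markers had log2 fold changes above 0 with GLP-2 (median 0.93), of which 3 were called by edgeR. The part that the makeup of the scraping had in the transporter values was not tested.

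**Figure D3:**
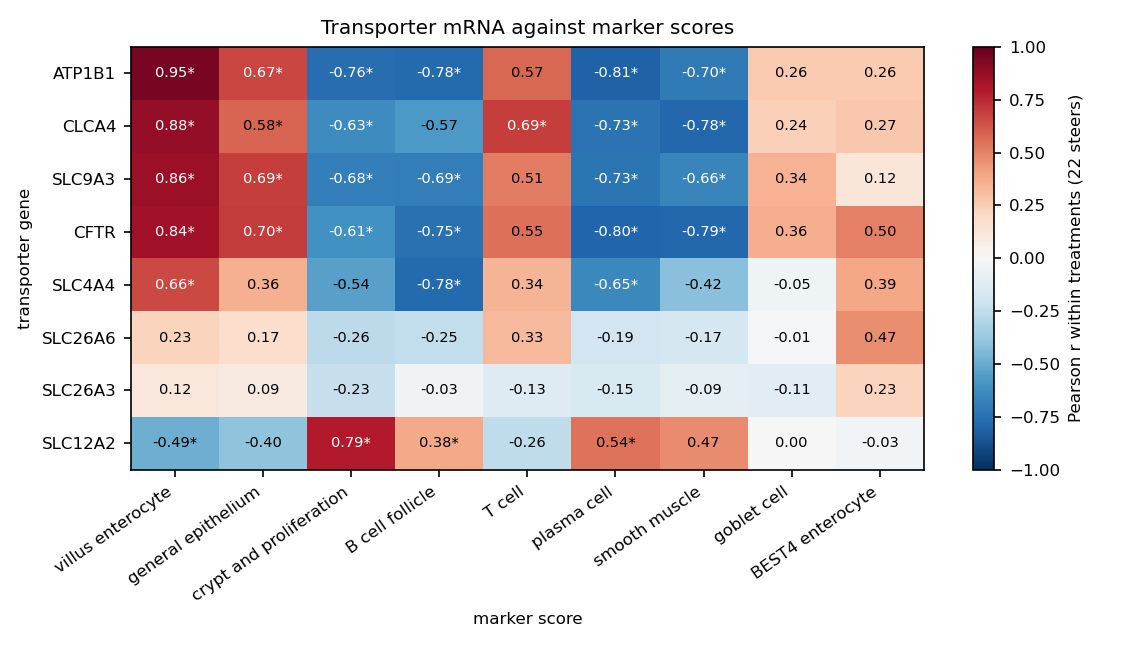
Pearson r of each transporter gene (rows, log2 CPM) with each marker score (columns, mean log2 CPM of the list) over 22 steers, treatment means removed. Asterisks mark relations with permutation adjusted p of at most 0.05 for both Pearson's r and Spearman's rho. SLC12A2 has the opposite sign to ATP1B1, CLCA4, SLC9A3, CFTR and SLC4A4 in the first 4 columns.

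**Figure D4:**
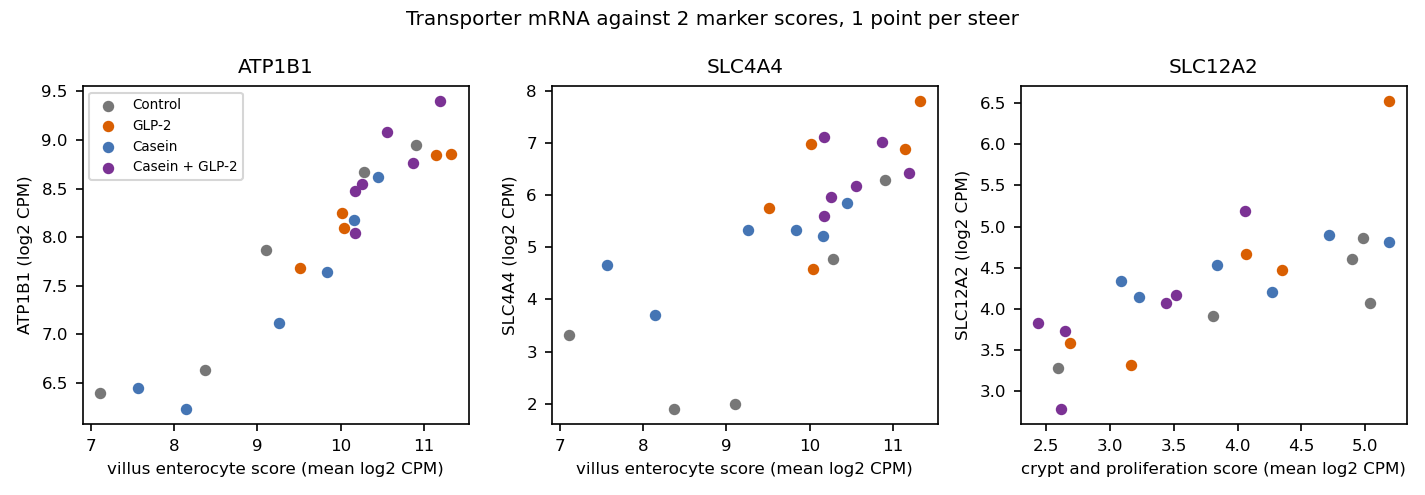
Log2 CPM of ATP1B1 and SLC4A4 against the villus enterocyte score and of SLC12A2 against the crypt and proliferation score (mean log2 CPM of the markers), with a point per steer coloured by treatment. ATP1B1 lies close to a line across all treatments, and the steers with the lowest villus scores received BSA.

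Among the 28 pairs of transporter genes, 10 passed for both r and rho. The positive pairs joined SLC9A3, CFTR, CLCA4 and ATP1B1 in every combination (r = 0.81 to 0.87, rho = 0.76 to 0.83, and r = 0.72 to 0.84 without the 2 farthest steers), and SLC4A4 with ATP1B1 (r = 0.67, permutation adjusted p = 0.0186; rho = 0.68). SLC12A2 was negative against SLC9A3 (r = -0.48, permutation adjusted p = 0.0138; rho = -0.69), CLCA4 (r = -0.46, permutation adjusted p = 0.0466; rho = -0.55) and ATP1B1 (r = -0.42, permutation adjusted p = 0.0479; rho = -0.54). SLC26A3 and SLC26A6 had r = 0.51 (permutation adjusted p = 0.235), and r = 0.11 without GLP-2 replicate 3, a steer left out after seeing the data. The treatment mean removed in that value still included this steer. All of these values come from the same libraries.

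The 3 genes most like each transporter gene, by Pearson r of the same residuals over 22 steers among 13246 named genes, are given as a description. For ATP1B1 they were SLC28A2 (r = 0.97), SEC24D (r = 0.97) and UGDH (r = 0.97), and for CLCA4 TM4SF20, GABARAPL1 and APOC3, the apolipoprotein of lipid-rich particles (r = 0.95 each). SLC9A3 was closest to TMEM86A (r = 0.94), MS4A8 (r = 0.93) and CES2 (r = 0.93). CFTR was closest to CPEB4 (r = 0.93), TCF7L2 (r = 0.93) and SLC2A2, the basolateral hexose transporter (r = 0.92). SLC4A4 was closest to CSNK1G1 (r = 0.94), LACC1 (r = 0.92) and LRP6 (r = 0.92). SLC12A2 was closest to CENPE (r = 0.89), a motor protein of the mitotic kinetochore, DEPDC1 (r = 0.88) and MYB (r = 0.86). For the remaining pair, r was lower: SLC26A6 had NAALADL1 (r = 0.82), SLC3A2 (r = 0.78) and MAPK4 (r = 0.77), and SLC26A3 had CERS5 (r = 0.77), TINAG (r = 0.74) and BLMH (r = 0.67). GLP-2 replicate 3 held 52.4% of SLC26A6 counts and 91.6% of SLC26A3 counts, and r with these neighbours was not taken without it.

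Other genes of intestinal ion transport were taken from 6 lists with 70 entries, of which 66 were in the table and 50 were tested between GLP-2 and BSA. Of these, edgeR called 5, all higher with GLP-2, beside 13.5% of all genes in either direction and 5.13% as higher. Log2 fold changes were above 0 in 34 of 50, with a median of 0.37, beside 50.7% and a median of 0.01 over all genes. The lists too were chosen with earlier results of these data known, so that these shares are a description. The list of regulators and signals held 4 of the 5, of 20 tested. Of these, 3 belong to second messenger pathways of secretion. GUCY2C, the guanylate cyclase that binds guanylin and uroguanylin, had 122 ± 62.6 CPM (SD, n = 11) with BSA and 268 ± 109 CPM with GLP-2 (log2 fold change 1.15, SE 0.29; edgeR adjusted p = 0.0229). PRKG2, the cyclic GMP-dependent kinase of the brush border, had 50.9 ± 45.7 and 144 ± 76.6 CPM (log2 fold change 1.52, SE 0.44; edgeR adjusted p = 0.0310). VIPR1, a receptor for vasoactive intestinal peptide, had 75.6 ± 34.8 and 135 ± 43.6 CPM (log2 fold change 0.85, SE 0.24; edgeR adjusted p = 0.0274).

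OXSR1, a kinase that activates sodium-potassium-chloride cotransport, had a log2 fold change of 0.70 (SE 0.24; edgeR adjusted p = 0.0494). The ligands of GUCY2C were not called, with log2 fold changes of 0.07 for GUCA2A and 0.35 for GUCA2B (SE 0.31 and 0.23), although GUCA2B was the list's highest gene per length, with a mean of 628 FPKM over 22 steers. Of 9 tested genes of absorption, 7 had log2 fold changes above 0, with a median of 0.37.

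Of the 8 tested genes of secretion, 3 had log2 fold changes above 0, edgeR called 0 (4 at an unadjusted p of at most 0.05), and DESeq2 called CLCN2 as higher (adjusted p = 0.0395). The values ran from -1.31 (SE 0.54; edgeR adjusted p = 0.0955) for ANO1, a calcium-activated chloride channel, and -1.11 (SE 0.48; edgeR adjusted p = 0.104) for KCNQ1, a basolateral potassium channel, to 0.73 (SE 0.27; edgeR adjusted p = 0.0676) for CLCN2, a chloride channel and the list's highest gene per length (mean 48.6 FPKM). Of 4 pump genes, edgeR called 0 (3 at an unadjusted p of at most 0.05) and DESeq2 called 1. ATP1B3, the highest pump gene per length (mean 701 FPKM), had 0.54 (SE 0.29; edgeR adjusted p = 0.188). Carbonic anhydrases, which make bicarbonate, were not called by edgeR or DESeq2 in 4 of 4 tested (1 at an unadjusted p of at most 0.05 in edgeR). CA13 was their highest gene (mean 25.5 FPKM; log2 fold change 0.50, SE 0.32). Of 5 scaffold genes, edgeR called 0 (2 at an unadjusted p of at most 0.05) and DESeq2 called SLC9A3R2 as lower (adjusted p = 0.0255), with log2 fold changes of 0.49 (SE 0.27) for SLC9A3R1, which tethers SLC9A3 and CFTR (mean 280 FPKM), and -1.35 (SE 0.50; edgeR adjusted p = 0.0664) for SLC9A3R2.

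The count of 5 moved with the fit. DESeq2 called 10 of the ion transport genes as higher, beside 9.15% of all genes, and 1 as lower, SLC9A3R2. With the replicate block, edgeR called 3, all higher, beside 2.52% of all genes (GUCY2C, PRKG2 and VIPR1, adjusted p = 0.0482, 0.0482 and 0.0488). Without 1 steer it ran from 1 (without casein + GLP-2 replicate 3, control replicate 1 or control replicate 3) to 16 (without control replicate 2), and without the 4 follicle-rich steers it was 0. Casein infusion gave 0 called of 50 in edgeR (3 at an unadjusted p of at most 0.05) and 0 in DESeq2, with a median log2 fold change of 0.08.

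**Figure D5:**
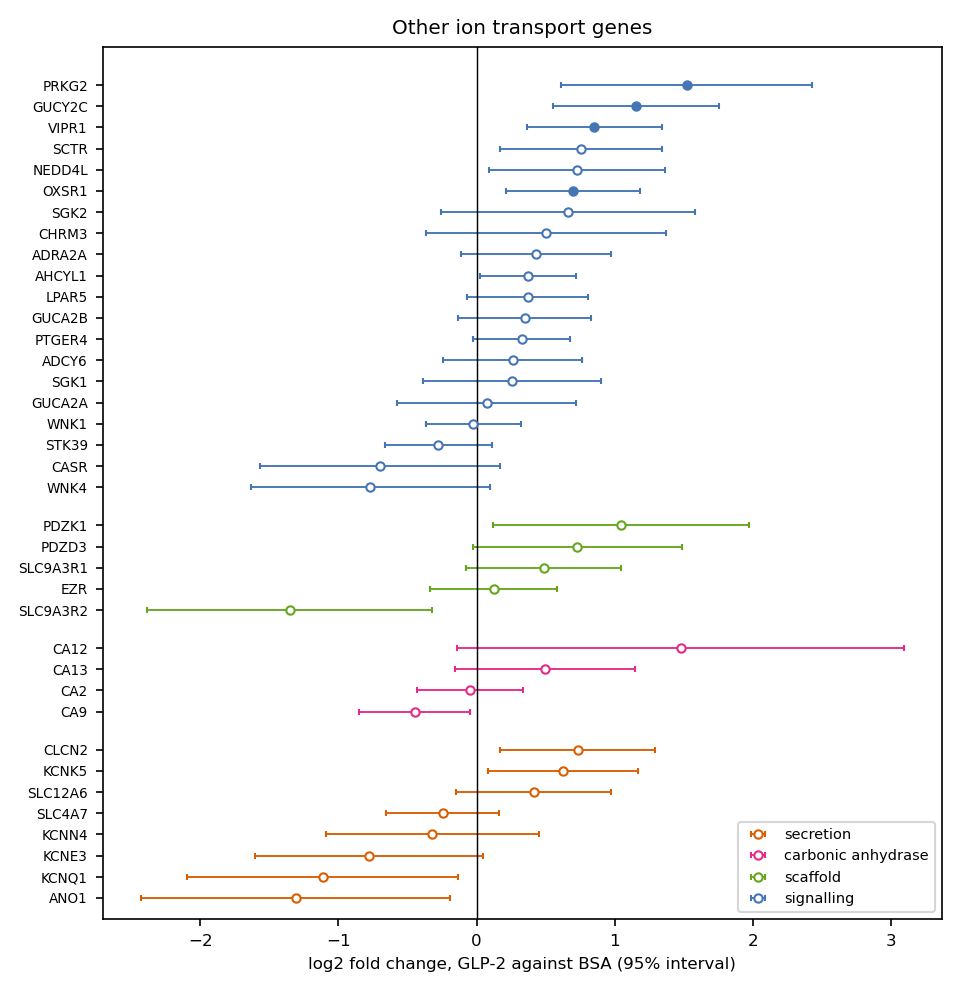
Log2 fold changes with GLP-2 against BSA (horizontal axis, 95% intervals) of the 37 tested genes in the lists of signals, scaffolds, carbonic anhydrases and secretion, coloured by list and ordered within it; filled points passed an adjusted p of 0.05 in edgeR. The 4 filled points are signalling genes above 0, and ANO1, KCNQ1 and SLC9A3R2 lie farthest below 0.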

How the data were processed

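Jejunal mucosal RNA of 22 steers (5 control, 5 GLP-2, 6 casein, 6 casein + GLP-2) was analysed. The authors aligned reads to ARS-UCD1.2 with HISAT2 (2.0.5), counted them with featureCounts (1.5.0-p3) and deposited whole-number counts without normalization. The authors also deposited FPKM, which divide counts by gene length and library size. FPKM were used for levels between genes and in limma. No sequences are shown, and gene positions are those of the deposited tables.

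From the counts, edgeR 4.0.16 (R 4.3.3; filterByExpr, minimum count 10; TMM; quasi-likelihood test) was fitted to the whole table, with p-values adjusted by Benjamini-Hochberg, called at 0.05 and named a tendency up to 0.10. CPM use factors from 15086 genes, and log2 CPM a prior count of 2. SE were taken from the F statistics. Alternatives used DESeq2 1.42.0 and limma 3.58.1 on log2(FPKM + 1) or log2(FPKM + 0.1). Scripts were tested on simulated data. No libraries within a treatment were identical.

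The members, lists and tests were chosen with earlier results of these data known. Named were the 8 transporter genes, ion transport genes past the threshold (at most 12), each list's highest tested gene by FPKM, and the 3 most similar genes. Further genes (GUCA2A, ANO1, KCNQ1 and SLC9A3R2) were named after their values were seen. Some listed genes are not reported here by name. Of the listed symbols, 4 ion transport genes and 3 goblet cell markers found no match in the table. The labels give each steer a block, which the study formed by body weight. With treatment means removed, residuals over genes correlated at 0.03 on average in 30 pairs of steers from 1 block (13 above 0.1, lowest -0.46) and at -0.01 in 151 other pairs. The block therefore served as an alternative, and its value stands beside a result where it moved a count.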

Additional observations from a re-analysis of the deposited data

Results flagged for a closer look

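Within each treatment, the steer farthest from the others was looked at by Dixon's ratio for each transporter gene, on CPM and on log2 CPM, in 64 group tests. Chance flags about 1 in 20 where values are normally distributed, which was not checked for CPM. Both scales use the same steers, so that the tests are not independent. Of these tests, 6 were past the 95% critical value. On the CPM scale these were SLC26A3 in GLP-2 replicate 3 (90.7 CPM, next 3.89), SLC26A6 in the same steer (115 CPM, next 21.7), SLC12A2 in GLP-2 replicate 1 (91.9 CPM, next 25.3), SLC12A2 in casein + GLP-2 replicate 4 (36.3 CPM, next 17.8) and SLC26A6 in casein replicate 2 (22.3 CPM, next 9.06). The last was past it on the log2 scale too (4.49, next 3.20), and the other 4 were not. No cause was tested.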

How the results depend on the processing

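For GLP-2 against BSA, the 1881 genes called became 2999 with DESeq2, 689 with the replicate block, 3633 at an adjusted p of at most 0.10, and 0 with the follicle score or the general epithelial score as a covariate or without the 4 follicle-rich steers, an alternative added after seeing the data. Leaving out 1 steer gave 634 to 3516 genes, with more than 1.5-fold fewer without casein replicates 1 or 3, casein + GLP-2 replicates 1, 2 or 3, control replicates 1, 3 or 5, or GLP-2 replicates 3 or 6, and more than 1.5-fold more without casein replicate 6 or control replicate 2. The 1 transporter gene called became 3 with DESeq2, 3 with limma on log2(FPKM + 1) or log2(FPKM + 0.1), 2 without a filter on low counts (SLC4A4 and SLC26A3), 5 at an adjusted p of at most 0.10, and 0 with either covariate or without the follicle-rich steers. Without 1 steer it was 1 to 4, with 4 without control replicate 2 (SLC4A4, CLCA4, CFTR and ATP1B1), 3 without casein replicate 6 and 2 without control replicate 4. Of the ion transport genes, 5 were called, against 11 with DESeq2, 10 and 8 with limma, 15 at an adjusted p of at most 0.10, 3 with the replicate block, without a filter or with casein as a covariate, 0 with either score or without the follicle-rich steers, and 1 to 16 without 1 steer. Casein against water gave 0 genes, and 5 with DESeq2. GLP-2 against control gave 0 transporter genes, 2 with DESeq2 and 0 to 1 without 1 steer, and casein + GLP-2 against casein gave 0, and 1 with DESeq2. The block changed no other call at 0.05, and the tendency of SLC26A6 was lost with it (0.85, edgeR adjusted p = 0.282). That tendency was absent with DESeq2 as well (0.22, DESeq2 adjusted p = 0.618). Directions turned for values that were not called. SLC12A2 with GLP-2 was -0.0091 with the replicate block, -0.072 and -0.12 with limma and -0.30 to 0.26 without 1 steer. With casein, SLC9A3 was -0.050 with the follicle score. CLCA4 was -0.032 with GLP-2 as a covariate and -0.10 with the follicle score. SLC4A4 was 0.11 with the block, 0.12 with GLP-2 as a covariate, 0.022 with the follicle score, 0.45 and 0.64 with limma and -0.26 to 0.34 without 1 steer. ATP1B1 was -0.026, -0.25 and -0.051 with GLP-2, the follicle score and the epithelial score as covariates and -0.11 to 0.19 without 1 steer, and SLC12A2 was -0.44 to 0.15 without 1 steer. Without 1 steer, GLP-2 against control ran from -0.10 to 0.64 for SLC9A3, -0.052 to 1.07 for CLCA4 and -0.16 to 0.94 for SLC12A2, casein + GLP-2 against casein from -0.94 to 0.058 for SLC26A3 and -0.62 to 0.064 for SLC26A6, casein against control from -0.70 to 0.15 for SLC9A3, casein + GLP-2 against GLP-2 from -1.21 to 0.015 for SLC12A2 and -0.53 to 0.19 for SLC4A4, and the interaction from -0.37 to 0.10 for CFTR. The causes of these changes were not tested. Depth limits SLC26A3, which had fewer than 10 counts in 15 of 22 steers.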
